A study of Mus musculus with 12 samples.

Results

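The genes described here encode the hormones of the anterior pituitary, together with a transcription factor and a receptor of the cells that make them. They were Gh, Pomc (also listed under its older symbol Pomc1), Cga, Prl, Tshb, Lhb, Fshb, Pou1f1 and Ghrhr, and the probes taken were all those that the platform annotation assigns to one of these symbols. Of the 10 symbols listed, 8 had a probe, of 22491 symbols on the array, and Ghrhr had 2, which gave 9 of 45281 probes. The annotation used here lists no probe for Pou1f1, and none for Pomc1 apart from that of Pomc. The genes were chosen by their log2 values per array in an earlier look at the same data, so the values per array below are a description and carry no test.

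Illumina MouseWG-6 arrays measured RNA from whole brains at postnatal day 1, to compare gene expression between genotypes and strains that differ in the severity of hydrocephalus. The 12 arrays fell into 4 groups of 3. These were nm1054 129 brains (homozygous for the nm1054 mutation on the 129S6/SvEvTac background), WT 129 brains, nm1054 B6 brains (the same mutation on C57BL6/J) and WT B6 brains. The nm1054 mutation is a spontaneous deletion on chromosome 1 that removes Cfap221, a gene for a protein of motile cilia, together with its neighbours, so the mice lack more than that gene. Per the study's methods, the nm1054 B6 mice also carried a transgene with Steap3, and each group included males and females. Every comparison with nm1054 B6 brains therefore includes the transgene. Neither the labels nor the methods used here say whether the pituitary stayed with the brain at dissection, or how many brains went onto an array.

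The anterior pituitary lies below the hypothalamus and is made of endocrine cell types that each secrete their own hormone. Somatotrophs make growth hormone (Gh), corticotrophs process proopiomelanocortin (Pomc) into adrenocorticotropic hormone, thyrotrophs make thyrotropin, gonadotrophs make luteinizing and follicle-stimulating hormone, and lactotrophs make prolactin (Prl). Thyrotropin and both gonadotropins share the alpha subunit encoded by Cga and differ in the beta subunits encoded by Tshb, Lhb and Fshb. Pomc is also expressed in the brain itself, in neurons of the arcuate nucleus of the hypothalamus.

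The promoters of Pomc, Cga, Tshb, Lhb and Prl are shown as background on these genes. Each is the 250 bases before the RefSeq start on GRCm38.p6, at chr12:3954695-3954944 (plus strand) for Pomc, chr4:34893529-34893778 (plus) for Cga, chr3:102782715-102782964 (minus) for Tshb, chr7:45420696-45420945 (plus) for Lhb and chr13:27057320-27057569 (plus) for Prl. Capitals mark TATAAA and TATNCAT, the core of sites bound by Pou1f1, read on either strand. Of the 8 genes with a probe, 6 matched the promoter table, and entries for Gh and Ghrhr were not used here.
Pomc: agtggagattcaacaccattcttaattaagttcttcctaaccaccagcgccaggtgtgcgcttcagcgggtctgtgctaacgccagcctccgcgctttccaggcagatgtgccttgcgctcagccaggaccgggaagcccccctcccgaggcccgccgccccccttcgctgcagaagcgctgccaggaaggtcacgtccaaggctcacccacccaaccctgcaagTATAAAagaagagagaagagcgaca
Cga: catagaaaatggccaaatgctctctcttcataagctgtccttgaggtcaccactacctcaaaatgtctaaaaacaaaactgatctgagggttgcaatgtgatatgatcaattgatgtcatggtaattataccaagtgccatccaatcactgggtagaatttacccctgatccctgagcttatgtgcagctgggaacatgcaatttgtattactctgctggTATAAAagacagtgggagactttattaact
Tshb: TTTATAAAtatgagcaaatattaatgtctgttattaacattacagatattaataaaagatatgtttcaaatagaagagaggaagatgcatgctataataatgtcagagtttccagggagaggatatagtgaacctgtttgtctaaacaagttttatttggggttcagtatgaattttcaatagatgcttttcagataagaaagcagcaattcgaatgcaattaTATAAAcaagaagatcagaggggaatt
Lhb: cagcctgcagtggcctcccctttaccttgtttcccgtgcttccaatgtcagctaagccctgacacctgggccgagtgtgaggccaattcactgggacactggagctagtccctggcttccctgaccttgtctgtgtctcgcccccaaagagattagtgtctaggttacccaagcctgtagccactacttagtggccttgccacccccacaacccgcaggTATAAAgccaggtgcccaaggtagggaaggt
Prl: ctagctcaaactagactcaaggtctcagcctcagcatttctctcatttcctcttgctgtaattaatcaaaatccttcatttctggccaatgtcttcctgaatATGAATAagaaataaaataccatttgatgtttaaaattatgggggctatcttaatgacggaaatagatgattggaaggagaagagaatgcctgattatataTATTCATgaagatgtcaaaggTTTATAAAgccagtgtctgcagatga

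The TATAAA box lay close to the start in each of them, at bases -25 to -20 in Pomc, -30 to -25 in Cga, -27 to -22 in Tshb, -31 to -26 in Lhb and -24 to -19 in Prl, counted from the start. Fshb, whose promoter is not printed, held it at -30 to -25. Of 32841 mouse promoters of the same length, 12.4% held TATAAA on either strand. In Prl it overlapped a match on the minus strand, and Tshb held another overlapping pair near the far end of the window. The letters TATNCAT, present in 7.93% of promoters, occurred in the Prl window alone among the 6 hormone promoters searched, at -47 to -41 and, on the minus strand, at -148 to -142. TAATCC, the core bound by Pitx and Otx factors, was in none of these windows and in 6.25% of all promoters. A match or its absence describes the letters in these windows and no binding. Any relation of these letters to the values of an array was not tested, and the promoter of Gh was not among those searched.

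The values are log2 intensities relative to the median of the same probe over the 12 arrays. A value of 0 is thus the middle array and each unit above it doubles the signal, but the values hold no signal level, so the hormones cannot be ranked against each other by abundance and a silent probe cannot be told from a weak one. The median of an array over all probes was -0.173 in the lowest (WT B6 replicate 1) and 0.113 in the highest (WT 129 replicate 1). Dbi, one of the deleted genes, averaged between -3.21 and -2.85 over its 3 probes in nm1054 arrays and between 2.75 and 2.88 in WT arrays, as the genotype labels have it. Since the values are relative, the label of brain could not be checked against the level of neuronal genes.

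The hormone genes were high in a single array. In nm1054 129 replicate 1, 8 of the 9 probes had their highest value of the 12 arrays, where this array was highest at 6.47% of all probes. The excess over the next highest array was 6.22 log2 units for Gh (74.7-fold), 3.68 for Pomc (12.8-fold), 2.98 for Cga (7.90-fold), 1.58 for Tshb (3.00-fold) and 1.12 for Lhb (2.17-fold). These were the 5 largest excesses of any of the 45281 probes in that array, and no other probe in it exceeded the next array by more than 1 log2 unit. In bulk tissue, more cells of a type and more RNA per cell cannot be told apart.

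Gh, the product of somatotrophs, read 7.52, -0.06 and 1.29 in nm1054 129 brains (replicates 1 to 3) and 1.05, -0.18 and -0.09 in WT 129 brains. On B6 it read 0.06, -0.34 and -0.29 in nm1054 brains and -0.32, 0.27 and 0.61 in WT brains. A single array thus stood far above the rest, and the groups overlapped in every comparison. Among the other 11 arrays, nm1054 129 replicate 3 and WT 129 replicate 1 were the highest for Gh. In these arrays Pomc read -0.28 (nm1054 129 replicate 3) and 0.31 (WT 129 replicate 1), and Cga -0.27 and -0.07. The group means were 2.92 ± 4.04 in nm1054 129, 0.26 ± 0.68 in WT 129, -0.19 ± 0.21 in nm1054 B6 and 0.19 ± 0.47 in WT B6 (SD, n = 3 each). From the highest, their order was nm1054 129, WT 129, WT B6 and nm1054 B6, and each step between neighbours was smaller than the larger of their SDs.

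Pomc, the precursor made by corticotrophs, melanotrophs and arcuate neurons, read 4.04, 0.36 and -0.28 in nm1054 129 brains and 0.31, 0.06 and 0.17 in WT 129 brains. On B6 it read -0.16, -0.20 and 0.06 in nm1054 brains and -0.47, -0.24 and -0.06 in WT brains. Outside nm1054 129 replicate 1 its values covered less than 1 log2 unit. Its group means were 1.38 ± 2.33 in nm1054 129, 0.18 ± 0.12 in WT 129, -0.10 ± 0.14 in nm1054 B6 and -0.26 ± 0.20 in WT B6 (SD, n = 3 each).

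Cga, the shared alpha subunit, read 3.78, 0.06 and -0.27 in nm1054 129 brains and -0.07, 0.80 and -0.25 in WT 129 brains. On B6 it read -0.50, -0.05 and 0.38 in nm1054 brains and -0.47, 0.05 and 0.06 in WT brains. The second highest array was WT 129 replicate 2, which was also second for Tshb, Lhb and a Ghrhr probe, at 0.28, 0.43 and 0.21. Its Gh value, -0.18, was below the middle array.

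Tshb, the beta subunit of thyrotropin, read 1.86, -0.03 and -0.37 in nm1054 129 brains and -0.10, 0.28 and 0.11 in WT 129 brains. It read -0.30, -0.07 and 0.08 in nm1054 B6 brains and -0.54, 0.17 and 0.03 in WT B6 brains. The nm1054 129 group thus held both the highest value and the second lowest. Lhb, the beta subunit of luteinizing hormone, read 1.55, -0.02 and 0.12 in nm1054 129 brains, -0.04, 0.43 and -0.02 in WT 129 brains, -0.21, -0.38 and 0.02 in nm1054 B6 brains and -0.26, 0.09 and 0.12 in WT B6 brains. Its spread over the other 11 arrays was within 1 log2 unit, and its value in nm1054 129 replicate 1 lay outside that spread.

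The remaining hormones did not share the excess. Fshb, the beta subunit of follicle-stimulating hormone, read 0.27, 0.15 and -0.02 in nm1054 129 brains and 0.20, -0.11 and 0.08 in WT 129 brains, and its excess in nm1054 129 replicate 1 over the next array was 0.07. It read -0.02, -0.06 and 0.02 in nm1054 B6 brains and -0.47, -0.12 and 0.10 in WT B6 brains. Prl, the product of lactotrophs, was highest in WT 129 replicate 1 and lay close to the middle of the arrays in nm1054 129 replicate 1. Its values were -0.04, 0.32 and -0.01 in nm1054 129 brains, 0.38, 0.01 and 0.04 in WT 129 brains, -0.01, -0.17 and 0.05 in nm1054 B6 brains and -0.52, -0.10 and 0.13 in WT B6 brains. Whether these probes can report a change at all could not be checked, because the values hold no signal level.

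Ghrhr encodes the receptor through which growth hormone releasing hormone acts on somatotrophs. Its probe ILMN_2596001 read 0.70, 0.15 and -0.37 in nm1054 129 brains, 0.11, 0.21 and 0.09 in WT 129 brains, 0.12, -0.47 and -0.29 in nm1054 B6 brains and -0.32, -0.32 and -0.09 in WT B6 brains. Its excess of 0.50 in nm1054 129 replicate 1 ranked 7 of the 45281 probes. The probe ILMN_2657702 gave the same array as highest, at 0.35, against -0.43 to 0.13 in the other 11 arrays, with an excess of 0.22 that ranked 113. Both probes had the same array on top with excesses of unequal size.

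**Figure D1:**
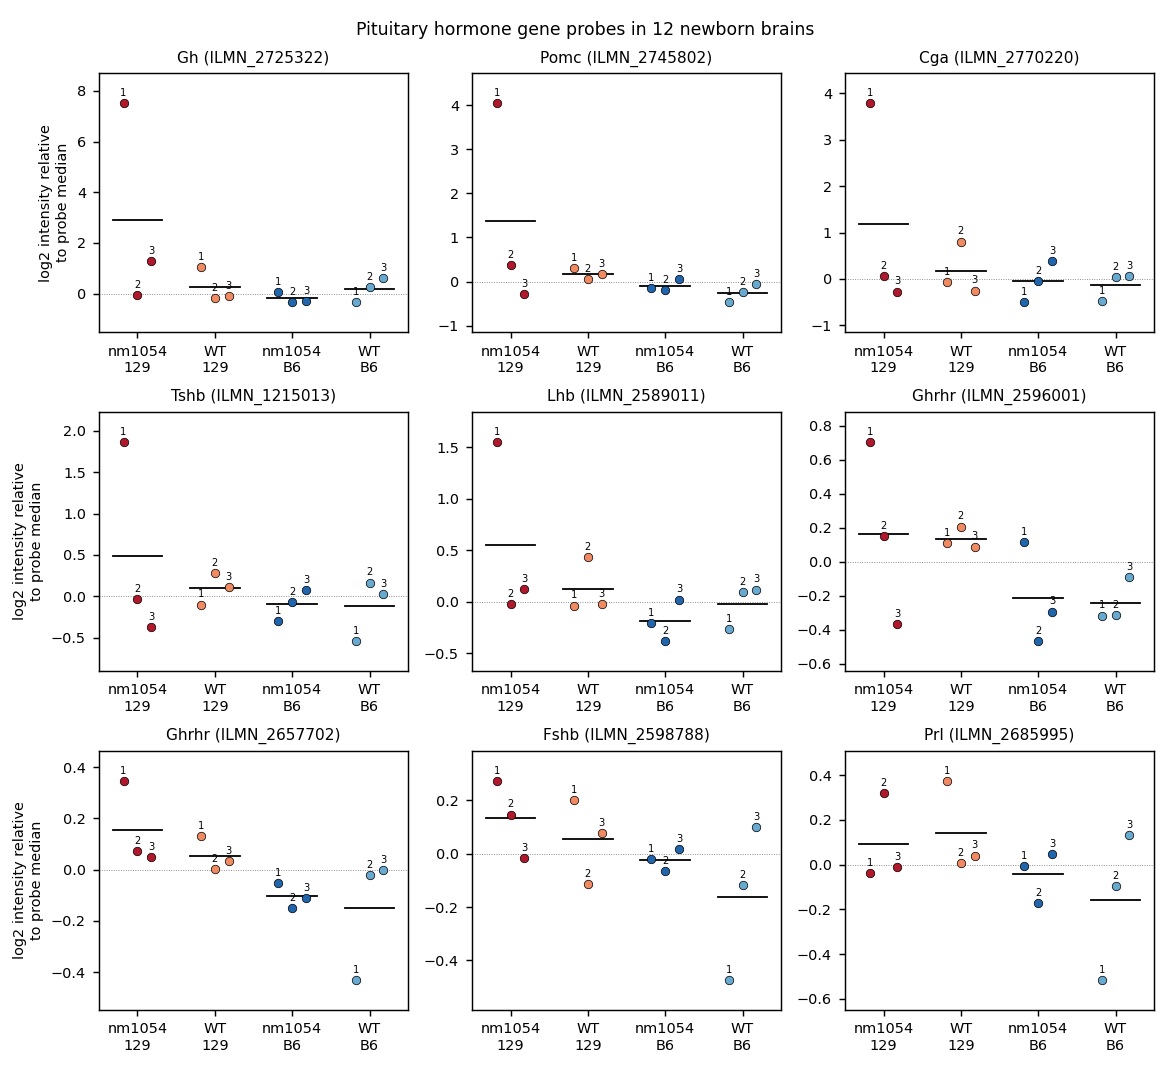
Log2 intensity relative to the probe median (vertical axis, scaled per panel) of the 9 probes in the 12 arrays, with replicate numbers beside the points and bars at the group means (n = 3). In nm1054 129 replicate 1, Gh reached 7.52, Pomc 4.04, Cga 3.78, Tshb 1.86 and Lhb 1.55, while Fshb and Prl read 0.27 and -0.04.

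On the deposited scale no probe in another array had an excess as large as that of Gh. The largest excess of any probe lay between 0.52 and 3.12 in the other 11 arrays, the highest being Hoxa5, a homeobox gene of the neck and trunk, in nm1054 B6 replicate 2. That array had 9 probes more than 1 log2 unit above the next array, nm1054 129 replicate 1 and WT B6 replicate 2 had 5 each, WT 129 replicate 1 had 1, and the other 8 arrays had none. After quantile normalization the order changed, with 3.36 for Hoxa5 in that array and 2.89 for Pomc, the largest in nm1054 129 replicate 1, and 0.489 to 1.3 in the other 10 arrays. On the deposited scale, all 5 in nm1054 129 replicate 1 were hormone genes, and none of those in the other arrays was. The next probe in nm1054 129 replicate 1 was of Cnn2, an actin-binding calponin, with an excess of 0.58.

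**Figure D2:**
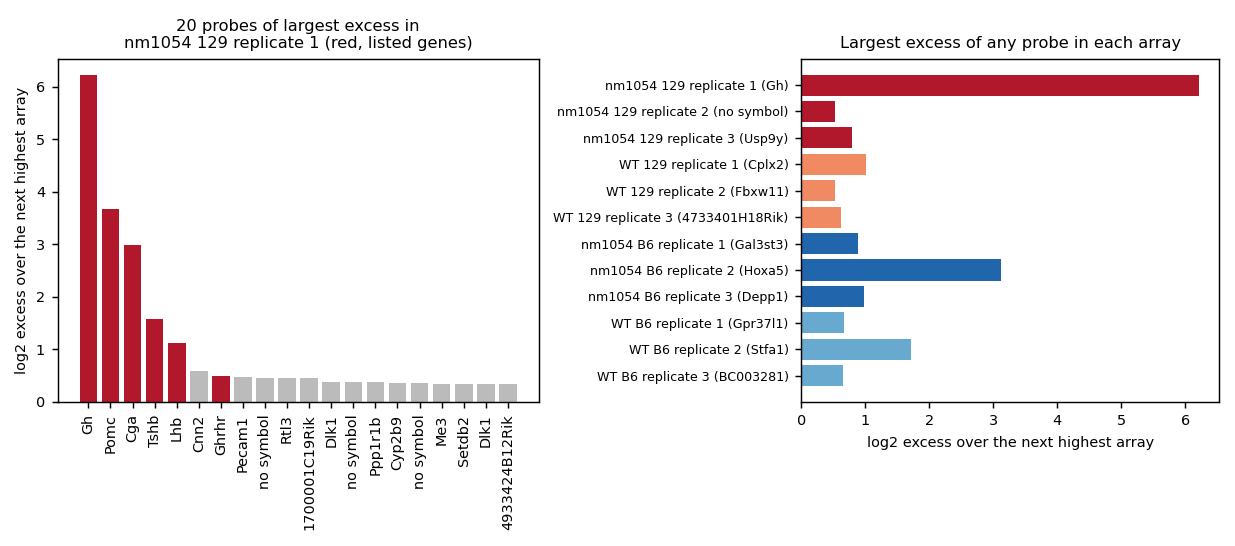
Left, the 20 probes with the largest log2 excess of nm1054 129 replicate 1 over the next highest array, with the hormone genes and Ghrhr in red. Right, the largest excess of any probe in each of the 12 arrays, with its gene. Gh led at 6.22, and Hoxa5 in nm1054 B6 replicate 2 was second over the arrays at 3.12.

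That array also bore on the spread of the 5 high hormones within groups. The pooled within-group SD of Gh was 2.06 log2 units, which ranked 4 of all probes, and those of Cga and Pomc were 1.19 and 1.18 (ranks 11 and 12). Tshb had 0.644 and Lhb 0.478, where the median over all probes was 0.161 and the 99th percentile 0.340. The SDs without nm1054 129 replicate 1 were 0.583 for Gh, 0.423 for Cga, 0.262 for Tshb, 0.227 for Pomc and 0.216 for Lhb. Of these, Gh and Cga still lay above that 99th percentile. The Ghrhr probes had 0.315 and 0.153, Prl 0.225 and Fshb 0.182 over all 12 arrays, and 0.224 and 0.137, 0.233 and 0.184 without it.

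Apart from Ghrhr, described above, genes of the pituitary other than its hormones were taken from 3 lists. Of their 50 probes 2 were highest in nm1054 129 replicate 1, where 6.47% of all probes were. Whether the brain itself expresses the genes of these lists was not tested, so they may not mark the pituitary within whole brain. Of the transcription factors of the pituitary, 10 of 12 genes were measured by 16 probes, whose median in that array was 0.049. Their mean per array lay between -0.09 and 0.12 in nm1054 129 brains (0.07 in replicate 1), between 0.07 and 0.14 in WT 129 brains, between -0.10 and -0.01 in nm1054 B6 brains and between -0.22 and 0.03 in WT B6 brains. The mean of nm1054 129 replicate 1 thus fell within those of the other arrays. Gata2, which acts with Pou1f1 in thyrotrophs, read 0.05 there, Neurod1, a corticotroph factor, -0.03, and the 5 probes of Lhx3, a factor of most pituitary lineages, between 0.00 and 0.13. Tbx19, the corticotroph factor that activates Pomc and a gene picked out after its value was seen, had the largest excess of the list, 0.176.

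The 18 probes of receptors of the pituitary had a median of 0.0282 in nm1054 129 replicate 1, and none was highest in it. Their mean there was 0.03, within a range over the 12 arrays of -0.20 to 0.11. The 16 probes of secretory granule and hormone processing genes, which neurons also express, had a median of 0.0241 and 1 was highest. It was a probe of Pam, the peptide-amidating enzyme, picked out after its value was seen, with an excess of 0.0912. Of the genes of largest spread in that list, Pcsk2 read 0.0273, Scg2 0.152 and 0.0121, and Vgf -0.361 and -0.00153 in nm1054 129 replicate 1. Hypothalamic releasing hormones, a list of 6 probes that also held Sst and Th, had none highest in it. Hypothalamic neuropeptides, at 8 probes, had 1, of Pmch, with an excess of 0.0247. Receptors for the pituitary hormones, such as Ghr and Mc3r, had none of 16, in a list that also held the growth factor Igf1. Of the probes of neuronal genes 1 of 13 was highest in it, and of sex-linked genes none of 11.

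Markers of other tissues that can come along with a dissected brain were read in the same way. That array was highest at 6.47% of all probes. In lists this short a single probe changes the share a great deal, so a share above or below that value is not read as a departure. None of the probes of choroid plexus (9), surface epithelium (8), skeletal muscle (11), cartilage and bone (16), sensory ganglia (10) or pineal and retina (4) was highest in it. Of meninges and fibroblasts 3 of 17 (17.6%) were, a larger share than over all probes, with excesses of up to 0.0426. The mean of the 14 red blood cell probes was the lowest of the 12 arrays there, -0.344, where the other arrays ran from -0.280 to 0.889. That mean includes the Hbb-b1 probes ILMN_1235372 and ILMN_1255462. They read -0.951 or less in every 129 array and 0.951 or more in every B6 array. The mean therefore carries a strain difference and does not rank the arrays by blood content. The part of blood content in the hormone values was not tested.

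**Figure D3:**
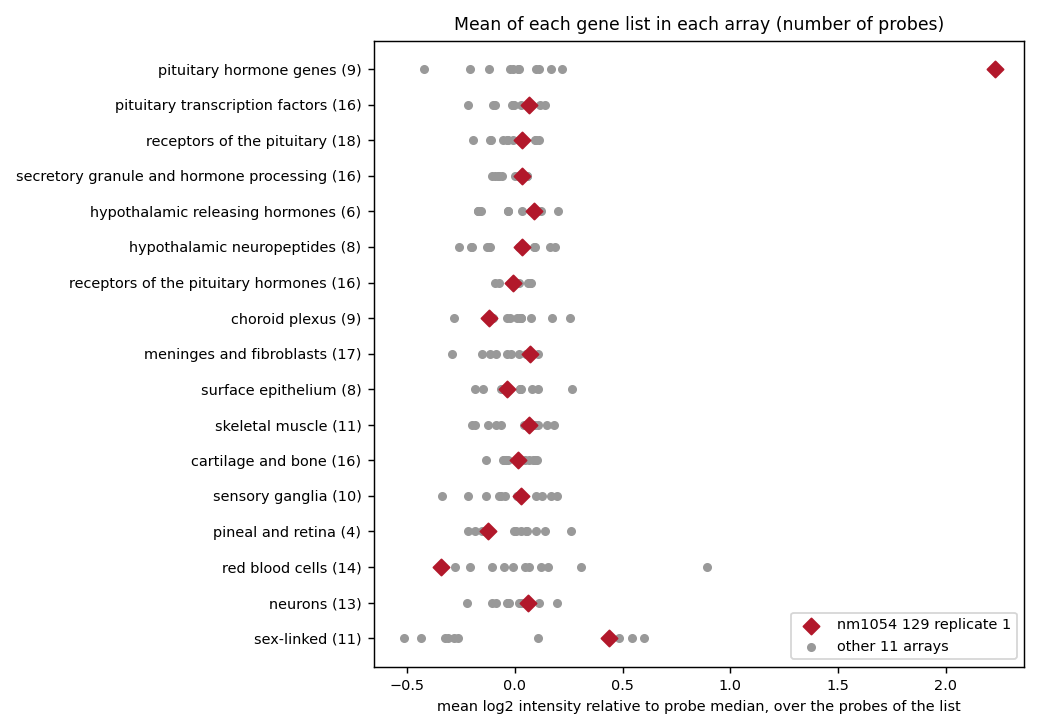
Mean log2 intensity relative to the probe median of the hormone genes and of 16 other gene lists (rows, number of probes in brackets) in each array, with nm1054 129 replicate 1 as a red diamond and the other 11 arrays in grey. The hormone genes averaged 2.23 in that array and between -0.42 and 0.22 in the others, while the pituitary transcription factors averaged 0.07.

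WT B6 replicate 1 was at the other end. It had the lowest value of the 12 arrays at 5 of the 9 probes, and the median of the 9 was -0.467. The share of all probes lowest in it was not counted, so the count cannot be read as particular to these genes. Other lists also had their lowest mean in it, such as neurons at -0.223 and pituitary transcription factors at -0.219. This array also had the lowest median over all probes, -0.173. The low values thus included probes that showed no excess elsewhere, such as Prl and Fshb, and their relation to the array median was not tested.

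The genotype comparison on 129 asks whether the nm1054 mutation changed these genes. limma called none of the 9 probes in nm1054 minus WT on 129, with 0.0199% of all probes called. Called probes had a fold change over 1.5 at a Benjamini-Hochberg adjusted p under 0.05. The means of Gh, Pomc and Cga differed by more than 1.5-fold, as 0.095% of all probes did, with differences of 2.66 (SE 1.10), 1.20 (SE 0.63) and 1.03 (SE 0.64) log2 units, each at an adjusted p of 1. Lhb differed by 0.43 and Tshb by 0.39, and the other 4 probes by -0.05 to 0.10. With nm1054 129 replicate 1 left out, the differences were 0.36 (SE 0.35) for Gh, -0.14 (SE 0.17) for Pomc, -0.27 (SE 0.27) for Cga, -0.07 for Lhb and -0.30 for Tshb, and no probe passed 1.5-fold. The median of the 9 was 0.391 with that array and -0.0743 without it, beside -0.0472 over all probes. Before adjustment, 1 probe (Gh) had a p under 0.05, as 2.65% of all probes did. The groups overlapped at all 9 probes, where 11.1% of all probes did not overlap.

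On B6 the genotype differences were small. limma called none of the 9 in nm1054 minus WT on B6, with 0.0177% of all probes called, and none had a p under 0.05 before adjustment, where 6.12% of all probes did. None of the means differed by more than 1.5-fold, where 0.199% of all probes did, and the groups overlapped at all 9, where 9.22% of all probes did not. The differences ran from -0.37 (SE 1.10) for Gh and -0.17 for Lhb to 0.16 (SE 0.63) for Pomc. The SE of Gh was 0.31 and that of Pomc 0.16 without nm1054 129 replicate 1, which enters this comparison through the shared spread alone. The smallest adjusted p of the 9 was 0.932.

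The strain comparison within nm1054 brains used the same nm1054 129 arrays, so its values are not independent of those above. In 129 minus B6 within nm1054, limma called none of the 9 probes, with 3.27% of all probes called. Gh differed by 3.11 (SE 1.10, adjusted p = 0.106), Pomc by 1.47 (SE 0.63, adjusted p = 0.18), Cga by 1.24 (SE 0.64, adjusted p = 0.261), Lhb by 0.74 (SE 0.27, adjusted p = 0.12) and Tshb by 0.58 (SE 0.36, adjusted p = 0.341). Leaving that array out gave 0.81 (SE 0.35, adjusted p = 0.249) for Gh, 0.14 for Pomc, -0.05 for Cga, 0.24 for Lhb and -0.10 for Tshb. For Gh this left -0.06 and 1.29 in nm1054 129 brains, against -0.34 to 0.06 in nm1054 B6 brains. The means of Gh, Pomc, Cga and Lhb differed by more than 1.5-fold with all arrays, as 3.44% of all probes did, and Gh alone did so without it. Before adjustment, 3 probes had a p under 0.05 with all arrays and 1 without that array, where 22.2% and 16.9% of all probes did. The groups did not overlap for the Ghrhr probe ILMN_2657702, as for 29.3% of all probes.

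This is the comparison in which a call depended on which array was left out. Without nm1054 129 replicate 2, limma called Gh (difference 4.60, adjusted p = 0.00805) and Lhb (1.03, adjusted p = 0.0381). Without nm1054 129 replicate 3 it called Pomc (2.30, adjusted p = 0.0259) and the Ghrhr probe ILMN_2596001 (0.64, adjusted p = 0.0383). Both sets of arrays kept nm1054 129 replicate 1 as 1 of 2 arrays in its group.

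Within WT brains, whose means do not involve nm1054 129 replicate 1, the strain differences were small and none was below 0. In 129 minus B6 within WT, limma called none of the 9 probes, with 3.33% of all probes called, and the smallest adjusted p was 0.221. None had a p under 0.05 before adjustment and none differed by more than 1.5-fold, where 26.7% and 3.43% of all probes did. Without nm1054 129 replicate 1, which enters here through the shared spread, 2 of the 9 had a p under 0.05 before adjustment, Pomc (SE 0.16 in place of 0.63, adjusted p = 0.103) and the Ghrhr probe ILMN_2596001 (adjusted p = 0.149), where 25% of all probes did, and none was called. The differences were 0.44 for Pomc, 0.38 and 0.21 for the Ghrhr probes, 0.30 for Prl, 0.28 for Cga, 0.22 for Fshb, 0.21 for Tshb, 0.14 for Lhb and 0.07 for Gh. All 9 were above 0 and their median was 0.219, beside 0.151 over all probes. With each array centred on its median the median over all probes was 0.0211, Gh differed by -0.06 and the other 8 remained above 0, up to 0.31 for Pomc. The 3 WT 129 values lay above the 3 WT B6 values for Pomc and both Ghrhr probes, as they did for 23.8% of all probes. In either direction, 29.4% of all probes did not overlap between these groups. For the Ghrhr probe ILMN_2657702 the nearest values were 0.00149 in WT 129 and -0.00149 in WT B6. Without WT B6 replicate 1, Gh differed by -0.18 and Tshb by -0.00212 and Pomc by 0.33.

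**Figure D4:**
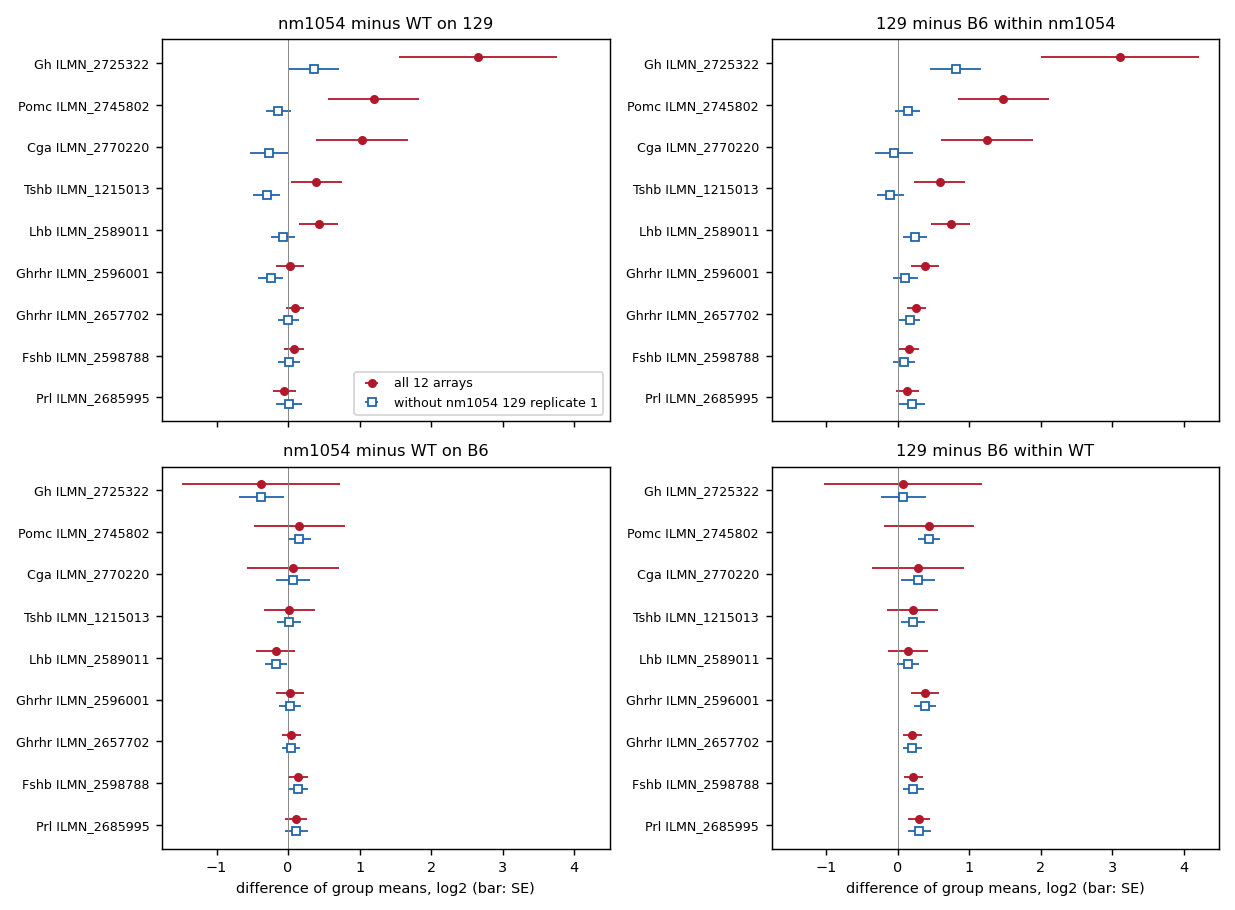
Differences of group means in log2 units (points, with SE as bars) for the 9 probes in the 4 comparisons, from all 12 arrays (red) and without nm1054 129 replicate 1 (blue squares). In nm1054 minus WT on 129, Gh stood at 2.66 with all arrays and 0.36 without that array, and no probe was called in any panel.

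The interaction sets the genotype difference on 129 against that on B6, and includes the transgene. It was 3.03 (SE 1.56) for Gh, 1.04 for Pomc, 0.96 for Cga, 0.60 for Lhb and 0.37 for Tshb, with an adjusted p of 1 for each. limma called none of the 9, with 0.00221% of all probes called. Its value without nm1054 129 replicate 1 was 0.73 (SE 0.47) for Gh, -0.30 for Pomc, -0.34 for Cga, 0.10 for Lhb and -0.31 for Tshb. Before adjustment none had a p under 0.05, where 4.09% of all probes did, and 4 differed by more than 1.5-fold, as 0.806% did. The genotype effect on the hormone genes was thus not shown to differ between the strains.

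None of the 50 probes of the pituitary lists was called in any of the 5 comparisons, in which 3.27% and 3.33% of all probes were called between strains, 0.0199% and 0.0177% between genotypes on 129 and on B6, and 0.00221% for the interaction. In 129 minus B6 within WT, 5 of 16 transcription factor probes, 4 of 18 receptor probes and 3 of 16 granule probes had an unadjusted p below 0.05, as did 26.7% of all probes. In nm1054 minus WT on 129 the counts were 2, 0 and 0, where 2.65% of all probes did.

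Across the 12 arrays, the deviations of Gh, Pomc, Cga, Lhb and Tshb from their group means ran together through nm1054 129 replicate 1. Pearson's r with Gh was 0.943 for Pomc, 0.888 for Cga, 0.885 for Lhb and 0.869 for Tshb, and -0.134 for Prl. Without that array the values were -0.114, -0.246, 0.097 and -0.224 for Pomc, Cga, Lhb and Tshb. They were then 0.403 for Prl, 0.463 for Fshb, and -0.172 and 0.555 for the Ghrhr probes ILMN_2596001 and ILMN_2657702. The arrays share their normalization, and for Cga, Lhb and Tshb the correlation with Gh described 1 array more than a relation over the set. For Pomc the measures differed. Spearman's r with Gh over the 12 arrays was 0.895 for Pomc, 0.552 for Cga, 0.636 for Lhb and 0.587 for Tshb. Pearson's r of Pomc with Gh was 0.699 over the groups other than nm1054 129, and -0.347 without nm1054 129 replicate 1 and WT B6 replicate 1. Of other genes, the probes most like Gh by this measure were of Scnn1b (r = 0.914), Ppp2r2b (0.868), Inca1 (0.867), Ndufaf8 (0.866) and Rtl3 (0.856). They read 0.45, 0.41, 0.45, 0.56 and 0.63 in that array, where Gh read 7.52. Without it their r with Gh was 0.532, 0.031, 0.205, 0.326 and -0.65.

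Xist, which is transcribed from the inactive X chromosome and so marks females, split the arrays into 6 with a mean of 1.78 to 2.42 over its probes and 6 with -2.23 to -1.84. Arrays of both kinds were in each group. The mean was 2.15 in nm1054 129 replicate 1, which had the highest Gh, whereas the next 4 arrays in the order of Gh, from nm1054 129 replicate 3 at 1.29 to WT B6 replicate 2 at 0.27, had means of -2.20 to -1.84. The other arrays with a mean Xist above 0 read between -0.34 and 0.06 for Gh. In the nm1054 129 group, replicate 1 was the only array of that kind, with Xist means of -1.91 in replicate 2 and -2.20 in replicate 3. Leaving out nm1054 129 replicate 1 thus also leaves out the only array of high Xist in its group. The part of sex in the Gh values was not tested.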

How the data were processed

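Total RNA of whole brains was labelled and hybridized in a single colour. Per the study's methods, the authors computed probe intensities with GenomeStudio and normalized them in GeneSpring GX. The deposited values are log2 intensities set to a median of 0 for each probe over the 12 arrays. The versions and the kind of normalization between arrays are not given in the sources used here. No signal levels or detection calls were used, so low signals were not filtered. The precision is limited by the number of arrays. No column was left unmapped (0 columns).

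Members were all probes with a listed symbol in the platform annotation (35784 of 45281 probes have a symbol). The members and the 16 gene lists were chosen with earlier results of these data known. All probes were fitted with limma 3.58.1 in R 4.3.3 (and the data.table package, version 1.17.8) with a mean for each of the 4 groups, 8 residual and 10.8 prior degrees of freedom, and two-sided tests were adjusted by Benjamini-Hochberg over 45281 probes. Calls needed an adjusted p under 0.05 together with a fold change over 1.5, except that the interaction had no fold threshold. This took the place of the unpaired t-test of the methods, which was an alternative. The samples are separate replicates per the labels. Where they do not come from separate animals, p-values measure technical spread.

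The named genes are every member probe, up to 4 called genes or else the 3 of largest pooled within-group SD of each list of the pituitary and hypothalamus, and the probes with a symbol whose deviations from group means were most like Gh. Others were named for an excess in an array, for a strain difference or as a check of the labels, or are marked as picked out later. Alternatives were the methods' t-test, a fit of the 2 groups alone, a replicate block, quantile normalization, centred arrays, another fold threshold (none, or 2), and leaving out each array. The excess under other scalings was added after seeing the data. On simulated data for nm1054 minus WT on 129, limma recovered 74%, 92%, 100% and 100% of 50 probes changed by 0.8, 1, 2 and 4 log2 units, with 4 false calls over 45281 probes. The change was added to every array of the group, at probes drawn at random. These rates therefore do not carry over to the hormone probes, whose spread is large and whose excess lay in 1 array. Promoters are RefSeq's, on GRCm38.p6, and the array values name no genome build. Figures used Python 3.11.15, pandas 2.3.3 and matplotlib 3.10.9.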

Additional observations from a re-analysis of the deposited data

How the results depend on the processing

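Counts of hormone gene probes called were 0 in 4 of the 5 comparisons under each alternative run for them. The methods' t-test, the fit of 2 groups alone and other fold thresholds were not run for the interaction. In 129 minus B6 within nm1054 they ranged from 0 to 2 when each array was left out in turn, with 2 called without nm1054 129 replicate 2 and 2 called without nm1054 129 replicate 3. The smallest adjusted p of the 9 probes ranged over the alternatives from 0.774 to 1 in nm1054 minus WT on 129, 0.673 to 1 on B6, 0.00805 to 0.27 in 129 minus B6 within nm1054, 0.0659 to 0.623 within WT, and 0.772 to 1 for the interaction. The methods' t-test called 0 in each of the 4 comparisons of groups, and 2 probes passed it unadjusted in 129 minus B6 within WT. Of 207 differences of single probes under other settings, 206 moved by less than 1 SD, and the exception was the Ghrhr probe ILMN_2657702 within WT (0.05 under quantile normalization, 0.21 in the main setting). The t-test, the replicate block and the fit of 2 groups alone give the same differences as the main setting by construction. Only quantile normalization and centring could therefore move a difference, and the count of 206 is no measure of robustness. The SD of Gh and Cga includes nm1054 129 replicate 1 and is large. Quantile normalization gave Gh 1.501 in nm1054 minus WT on 129 (2.66 in the main setting), 1.91 in 129 minus B6 within nm1054 (3.11) and 1.86 for the interaction (3.03), and Cga 0.66 (1.03), 0.85 (1.24) and 0.61 (0.96). Of 540 with an array left out, 525 moved by less, and the other 15 all came from leaving out nm1054 129 replicate 1, for Gh, Pomc, Cga, Tshb and Lhb. The 525 include differences that could not move, because the array left out was in neither group compared. In nm1054 minus WT on 129, Gh differed by 4.15 without nm1054 129 replicate 2, and Pomc by 2.02 and Cga by 1.76 without replicate 3.

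Quantile normalization, which gives every array the same set of values, reduced the excess of nm1054 129 replicate 1 to 1.90 for Gh and 1.70 for Cga and left 2.89 for Pomc, 1.87 for Tshb and 1.42 for Lhb, with Ghrhr probe ILMN_2596001 at 0.89. The same 5 hormone genes had the 5 highest ranks. Centring each array left 6.16 for Gh and 3.73 for Pomc. The replicate block left 0 of the 9 probes called in all 5 comparisons. Deviations of arrays with the same number correlated at -0.323 to 0.194, so the numbers only name the samples. Counts over all probes moved by more than 1.5 times in nm1054 minus WT on B6 (8 in the main setting, 93 without WT B6 replicate 1, 1 by the t-test, 5 for the 2 groups alone or a fold over 2), in nm1054 minus WT on 129 (9 and 4 by the t-test), in 129 minus B6 within nm1054 (1479, with 714 by the t-test, 2913 with no fold threshold and 627 at a fold over 2) and within WT (1510, with 543, 3528 and 604 under those settings), and for the interaction (1, with 5 under quantile normalization, 3 with centred arrays, 5 without nm1054 129 replicate 2 and 7 without WT B6 replicate 1).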

Other observations

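Genes picked out after their values were seen showed small excesses in nm1054 129 replicate 1. Both probes of Dlk1, a transmembrane protein of endocrine and other progenitor cells, were highest in that array at 0.71 and 0.59, with excesses of 0.33 and 0.38 over the next array that ranked 19 and 12 of all probes. Sytl4, which encodes granuphilin, a protein of secretory granules, was highest there at 0.43 with an excess of 0.30. Of the 2 probes of Cnn2, both were highest in it, with excesses of 0.58 and 0.11, and of the 2 probes of Pecam1, an endothelial adhesion protein, ILMN_3147074 was, with an excess of 0.47, while ILMN_2700982 read 0.02. Whether these go with the hormone genes was not tested.

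Among the lists of other tissues, limma called strain differences only in those named here. In 129 minus B6 within nm1054, where 3.27% of all probes were called, 2 of 17 probes of meninges and fibroblasts were higher and 1 was lower, 1 of 9 of choroid plexus was lower, 1 of 10 of sensory ganglia was higher, and of 14 of red blood cells 1 was higher and 2 were lower. Within WT, where 3.33% were called, 1 of 17 probes of meninges and fibroblasts, 1 of 9 of choroid plexus and 1 of 11 of skeletal muscle were lower, 1 of 10 of sensory ganglia was higher and 2 of 14 of red blood cells were lower. Neither genotype comparison nor the interaction called a probe of any of the 16 lists. The hypothalamic lists and the receptors of the pituitary hormones had no call in any comparison.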
